A study of Rattus norvegicus with 8 samples.

Results

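The genes described here are 40 genes of mitosis, taken by name: the cyclins and kinases that start division, the spindle and its motors, the kinetochore, and the machinery that parts the daughter cells. All 40 had a row in a gene count table of 37209 rows, and all 40 had enough counts to be tested. RNA came from 4 graft veins and 4 control veins, taken from Sprague Dawley (SD) rats 1 week after an operation. In that operation the left common carotid artery was divided and its ends were turned over short cuffs, so that the vein between them carried arterial blood. The controls were the jugular veins of the other side of the same operated rats, so no vein of an unoperated animal was compared. The extraction text of the labels names another tissue, the prefrontal cortex. Of 6 neuron markers, 2 had enough counts to be tested, and the 6 summed to 2.48 to 6.31 CPM in graft veins, against 3.01 to 5.54 CPM in control veins, while 6 smooth muscle markers summed to 1612 to 3207 CPM in graft veins, against 11296 to 18580.4 CPM in control veins. Source names number grafts 1 to 4 of the titles as 9, 10, 3 and 5, while controls are 1 to 4 in both. Which graft and control came from 1 animal is therefore not known, and the groups were compared unpaired. The labels do not say that each library is a separate animal, so the p-values below measure the spread between libraries, which may be technical.

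As background, a cell enters mitosis when cyclin B binds Cdk1 and the phosphatase Cdc25 frees the pair from inhibition. Spindle motors and kinetochores then align the chromosomes, a checkpoint holds the cell until all are attached, and the anaphase-promoting complex (APC/C) marks cyclins and securin for destruction so that the chromosomes part. Most of these genes are transcribed late in the cycle, from promoters that carry a cell cycle homology region (CHR) and CCAAT boxes, and they are repressed in resting cells. Cells of a healthy vein wall seldom divide, and in vein grafts smooth muscle cells, fibroblasts and leukocytes are known to divide as the wall thickens.

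Mitosis genes were higher in the grafts: 33 of 40 rose, 0 fell and 7 did not pass. The call is an adjusted p under 0.05 in edgeR's quasi-likelihood test, adjusted over all 15464 genes tested, of which 42.3% passed, 21.0% as rises and 21.3% as falls. No mitosis gene fell at an unadjusted p under 0.05 either (0 by edgeR, by DESeq2 and by limma voom), while 37 were higher at that level by edgeR. Their median log2 fold change, graft minus control, was 1.62, with a middle range from 1.29 to 2.03 between the quartiles. Over all genes tested that median was 0.01, with quartiles at -0.48 and 0.54. For 31 mitosis genes every graft lay above every control, and for 0 the reverse. Of all genes tested 40.6% were separated in this way, 20.8% with the grafts higher. Each of the 33 had a log2 fold change of 1 or more, and 13.1% of all genes tested rose that far. With each of the 8 libraries left out in turn, 32 to 35 rose. In bulk tissue, more dividing cells and more RNA per dividing cell cannot be told apart.

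**Figure D1:**
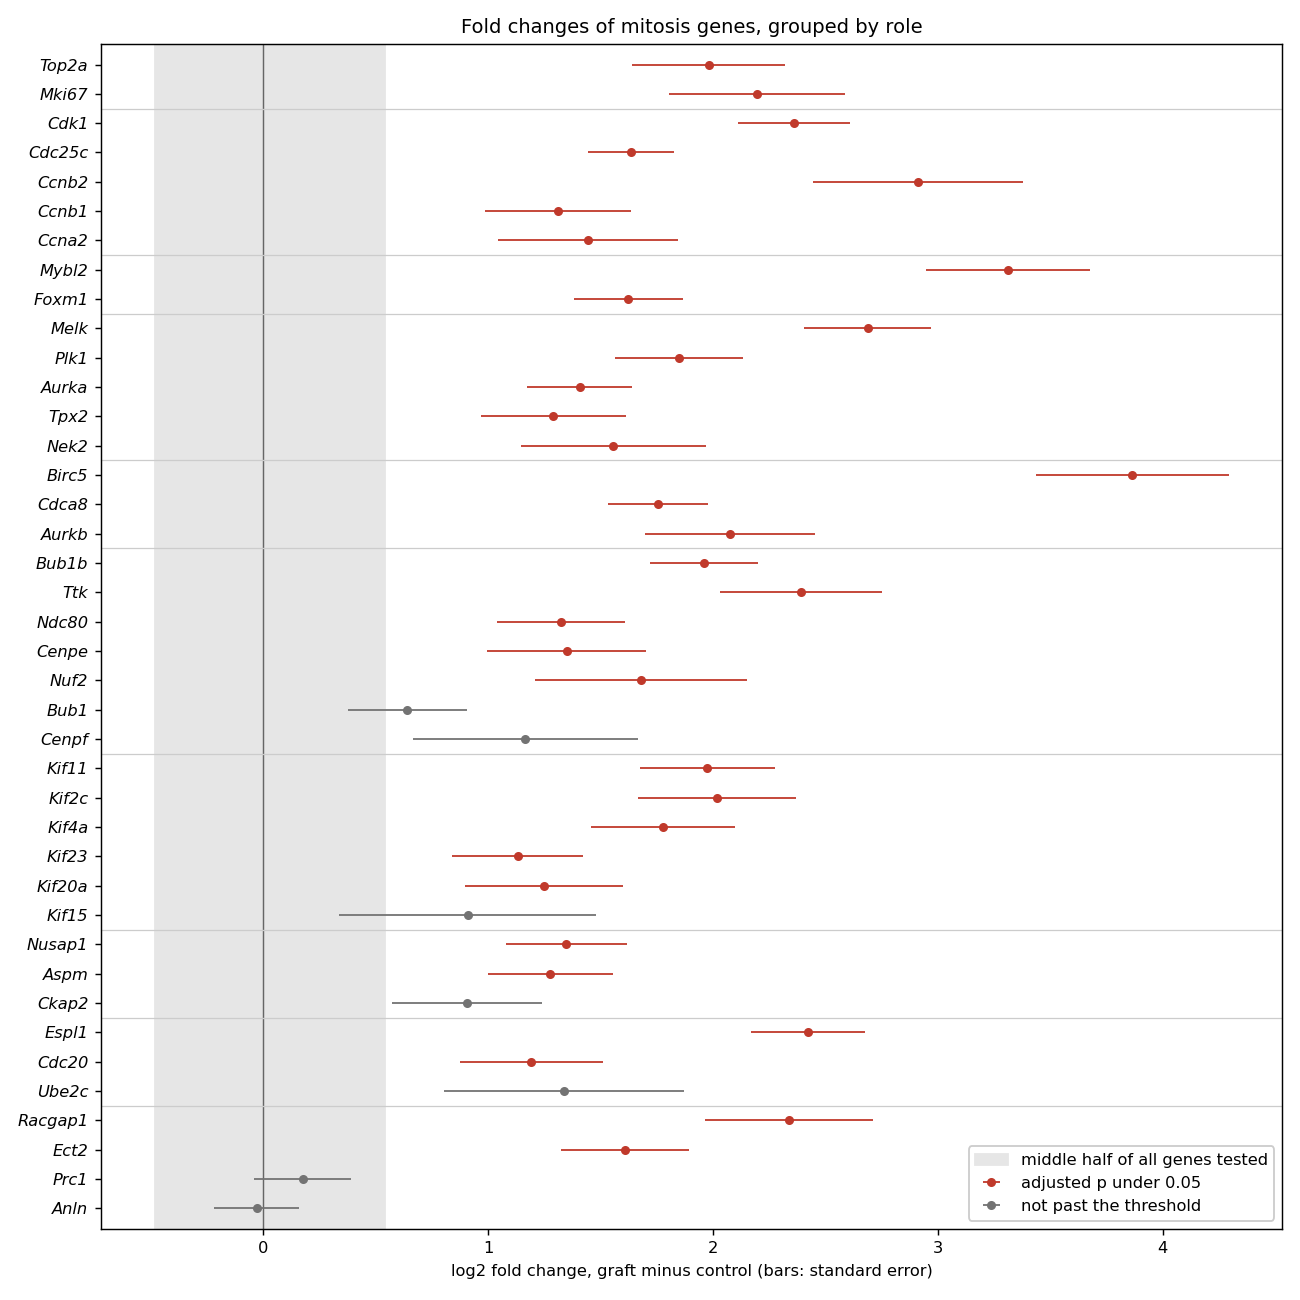
Log2 fold change of each of the 40 mitosis genes, graft minus control, on the x axis, with its standard error as a bar. Genes run down the page by role, red points passed the threshold and grey points did not, and the shaded band spans -0.48 to 0.54, the quartiles of all genes tested. Birc5 lies farthest right at 3.86 and Anln is the single gene left of 0, at -0.03.

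Total counts ran from 10533451 to 16061189 in the grafts and from 5981520 to 14267490 in the controls, with the fewest in control 4. Levels below are counts scaled to a common library size (CPM) with TMM factors. They are not divided by gene length, so they compare libraries for 1 gene and not genes with each other. In these libraries 3 counts stand for 0.182 to 0.240 CPM in the grafts and 0.225 to 0.560 CPM in the controls. No mitosis gene had 0 counts in any library. In each control 3 to 10 of the 40 genes had under 10 counts, and in the grafts 0 had. Scaling by library totals alone moved the median of all genes from 0.01 to 0.23 on the log2 scale, so changes are relative to the TMM scale.

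The promoters show what the mitosis genes share beyond their levels. The windows are RefSeq sequences of the rat assembly GRCr8, from 250 bases before to 50 bases after each annotated start, and 34 of the 40 genes have one. Ccna2, Foxm1, Tpx2, Aurkb, Ube2c and Racgap1 have none here. The sequences shown are those of Ccnb2, Cdk1 and Birc5, which rose, and of Prc1 and Anln, which did not pass. Capitals mark the CHR core TTTGAA and the CCAAT box on either strand (read as TTCAAA and ATTGG on the other strand). Neither motif holds the other, and the variant TTTAAA, counted below, reads the same on both strands. Each sequence shown holds TTTGAA, so windows without it are not shown.
Ccnb2: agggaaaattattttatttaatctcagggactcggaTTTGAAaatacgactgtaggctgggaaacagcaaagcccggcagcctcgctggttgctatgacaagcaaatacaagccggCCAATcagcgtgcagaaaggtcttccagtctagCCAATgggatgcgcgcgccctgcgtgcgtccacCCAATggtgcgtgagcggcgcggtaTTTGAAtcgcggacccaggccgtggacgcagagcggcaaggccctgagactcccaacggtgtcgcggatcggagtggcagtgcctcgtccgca
Cdk1: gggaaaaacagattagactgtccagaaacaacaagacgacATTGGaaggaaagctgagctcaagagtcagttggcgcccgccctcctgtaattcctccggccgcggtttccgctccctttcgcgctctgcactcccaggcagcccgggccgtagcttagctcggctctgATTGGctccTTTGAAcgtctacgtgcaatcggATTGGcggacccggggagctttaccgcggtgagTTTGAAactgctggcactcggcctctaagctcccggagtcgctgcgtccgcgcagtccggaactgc
Birc5: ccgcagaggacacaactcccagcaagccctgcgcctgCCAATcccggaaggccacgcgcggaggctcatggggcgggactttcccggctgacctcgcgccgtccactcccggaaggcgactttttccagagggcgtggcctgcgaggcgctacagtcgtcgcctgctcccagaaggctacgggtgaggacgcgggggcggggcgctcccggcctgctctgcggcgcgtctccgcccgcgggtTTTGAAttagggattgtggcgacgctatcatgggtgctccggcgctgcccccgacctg
Prc1: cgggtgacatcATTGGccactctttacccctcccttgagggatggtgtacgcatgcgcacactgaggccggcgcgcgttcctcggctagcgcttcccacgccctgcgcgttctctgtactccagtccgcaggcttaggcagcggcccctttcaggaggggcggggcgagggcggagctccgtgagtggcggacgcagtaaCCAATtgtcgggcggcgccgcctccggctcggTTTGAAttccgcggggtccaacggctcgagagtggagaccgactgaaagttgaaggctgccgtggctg
Anln: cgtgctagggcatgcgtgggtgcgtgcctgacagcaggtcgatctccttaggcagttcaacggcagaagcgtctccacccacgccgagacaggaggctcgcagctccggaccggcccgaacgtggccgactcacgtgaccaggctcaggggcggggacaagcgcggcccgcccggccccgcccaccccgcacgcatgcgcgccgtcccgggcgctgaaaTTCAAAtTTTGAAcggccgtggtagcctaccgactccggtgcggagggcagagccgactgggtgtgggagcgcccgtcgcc
These windows lie at chr8:79981609-79981908, minus strand (Ccnb2), chr20:19265043-19265342, plus strand (Cdk1), chr10:103571896-103572195, plus strand (Birc5), chr1:143659231-143659530, plus strand (Prc1) and chr8:29197464-29197763, minus strand (Anln). In Ccnb2 the TTTGAA nearest the start begins 43 bases before it, with CCAAT boxes that begin at 68, 101 and 134 bases before it. Cdk1 holds TTTGAA at 16 and 72 bases before its start, Birc5 at 8 and Prc1 at 18. Anln holds the core on both strands, at 24 and 31 bases before its start, with no CCAAT box in the window.

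TTTGAA was present on either strand in 24 of the 34 mitosis genes with a window (70.6%), against 19.4% of the 27457 genes in the promoter table and 13.0% of the 10095 genes that were both tested and in that table. It lay between 100 bases before and 50 bases after the start in 23 of the 34 genes, against 8.89% of all genes in the table. CCAAT was present in 24 of 34 (70.6%), against 39.6% of all genes in the table. The variant TTTAAA was present in 12 of 34, against 14.6%. Either form of the CHR was found in 31 of 34, against 29.6% of all genes in the table and 20.8% of those also tested. The exceptions were Mybl2, Melk and Nek2, of which only Nek2 held CCAAT. Of the 28 genes with a window that rose, 19 held TTTGAA, as did 5 of the 6 that did not pass. These shares describe letters in a window and carry no test of the factors that bind them.

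**Figure D2:**
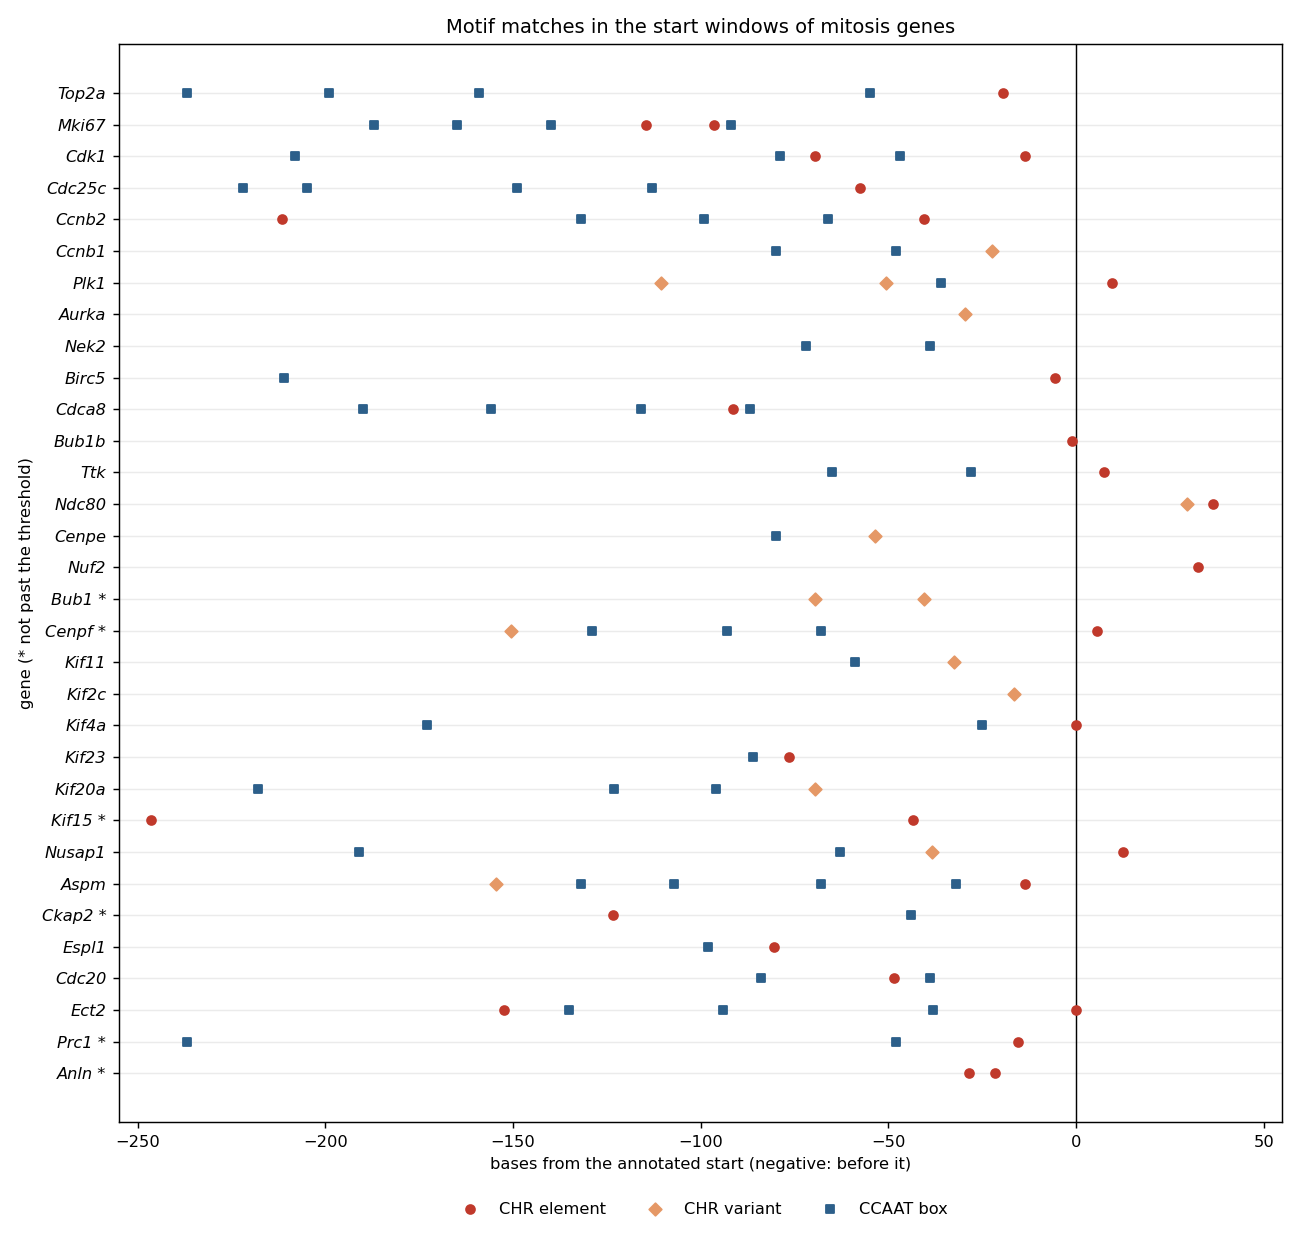
Places of motif matches in the start windows of the mitosis genes, in bases from the annotated start on the x axis, for the 32 genes with at least 1 match among 34 with a window. Red circles are the CHR core TTTGAA, orange diamonds its variant TTTAAA and blue squares CCAAT boxes, either strand, and an asterisk marks genes not past the threshold. In most rows a red or orange symbol stands between 100 bases before and 50 after the start, with blue squares farther upstream.

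Mki67 and Top2a, both present in the nucleus of dividing cells, rose in the grafts. Mki67, which coats mitotic chromosomes and serves as the usual marker of dividing cells, stood at 118, 194, 84.2 and 162 CPM in grafts 1 to 4, against 14.5, 21.2, 48.2 and 38.3 CPM in controls 1 to 4. Every graft was above every control, and control 3 was closest. The rise was 2.20 ± 0.39 (SE; edgeR adjusted p = 0.00181) on the log2 scale. Top2a, the topoisomerase that untangles sister chromosomes, stood at 80.0, 89.6, 53.3 and 87.5 CPM in grafts 1 to 4, against 11.8, 11.6, 31.9 and 23.7 CPM in controls 1 to 4. It too was separated between the groups and rose by 1.98 ± 0.34 (SE; edgeR adjusted p = 0.00148).

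All 5 genes of the cyclin and Cdk1 group rose, by log2 fold changes from 1.31 to 2.91, and all 5 were separated between the groups. Cdk1, the kinase that drives entry into mitosis, stood at 11.3, 18.5, 10.7 and 12.4 CPM in grafts 1 to 4, against 2.32, 2.09, 3.10 and 2.80 CPM in controls 1 to 4. Its lowest graft value was 3.46 times its highest control, and it rose by 2.36 ± 0.25 (SE; edgeR adjusted p = 0.00011). Cdc25c, the phosphatase that activates Cdk1, stood at 11.1, 12.8, 13.6 and 9.57 CPM in grafts 1 to 4, against 3.97, 3.98, 3.43 and 3.73 CPM in controls 1 to 4. The controls were close together for this gene, with a standard deviation of 6.87% of their mean, and it rose by 1.64 ± 0.19 (SE; edgeR adjusted p = 0.000179). Ccna2, cyclin A2, which acts from DNA replication into early mitosis, stood at 25.9, 32.1, 14.1 and 22.9 CPM in grafts 1 to 4, against 3.22, 7.77, 12.4 and 11.9 CPM in controls 1 to 4. Graft 3 lay only a little above controls 3 and 4, and the rise was 1.44 ± 0.40 (SE; edgeR adjusted p = 0.0167). The cyclin B genes, partners of Cdk1, rose by 1.31 (Ccnb1) and 2.91 (Ccnb2).

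Both transcription factors of the late cell cycle rose and were separated. Mybl2, B-Myb, which joins the MuvB complex at CHR promoters, stood at 7.34, 12.5, 8.80 and 8.47 CPM in grafts 1 to 4, against 1.05, 0.697, 0.502 and 1.68 CPM in controls 1 to 4. The lowest graft value was 4.37 times the highest control value, and it rose by 3.31 ± 0.37 (SE; edgeR adjusted p = 0.000134). Foxm1, the forkhead factor that follows B-Myb at these promoters, stood at 13.2, 17.1, 15.5 and 14.1 CPM in grafts 1 to 4, against 5.54, 5.48, 5.44 and 2.61 CPM in controls 1 to 4. Control 4 was the lowest and the other controls lay close together, and Foxm1 rose by 1.62 ± 0.24 (SE; edgeR adjusted p = 0.00068).

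The 4 mitotic kinases and Tpx2, which activates Aurora A on the spindle, rose in all 5 cases and were separated. Melk, a kinase of dividing cells, stood at 7.34, 8.26, 5.76 and 8.80 CPM in grafts 1 to 4, against 1.42, 0.797, 1.00 and 1.49 CPM in controls 1 to 4. Its rise of 2.69 ± 0.28 (SE; edgeR adjusted p = 0.000108) was the largest of the 5. Plk1, which acts on centrosomes, kinetochores and the midbody, stood at 12.8, 14.6, 6.80 and 11.2 CPM in grafts 1 to 4, against 2.32, 3.09, 4.02 and 3.17 CPM in controls 1 to 4 and rose by 1.85 ± 0.29 (SE; edgeR adjusted p = 0.000825). Nek2, which parts the centrosomes, stood at 4.37, 5.11, 2.56 and 4.04 CPM in grafts 1 to 4, against 1.57, 0.498, 2.01 and 1.31 CPM in controls 1 to 4. Graft 3 and control 3 were close for Nek2, whose rise was 1.56 ± 0.41 (SE; edgeR adjusted p = 0.0134), and with all libraries thinned to the depth of the smallest it did not pass (edgeR adjusted p = 0.0591). Aurka, Aurora A, rose by 1.41 and Tpx2 by 1.29.

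The chromosomal passenger complex, which corrects wrong attachments and then guides cytokinesis, rose in all 4 of its subunits: the kinase Aurkb, Birc5 and Cdca8, and the scaffold Incenp, which was not among the 40. Birc5, survivin, stood at 4.61, 5.56, 3.20 and 2.89 CPM in grafts 1 to 4, against 0.15, 0.299, 0.418 and 0.187 CPM in controls 1 to 4. The controls held 11 counts of Birc5 in all and the grafts 235, and the log2 rise of 3.86 ± 0.43 (SE; edgeR adjusted p = 0.000136) was the largest of the 40. Aurkb, Aurora B, stood at 10.3, 11, 8.88 and 11.2 CPM in grafts 1 to 4, against 1.5, 4.88, 1.67 and 1.68 CPM in controls 1 to 4. Control 2 stood above the other controls and below every graft, and Aurkb rose by 2.08 ± 0.38 (SE; edgeR adjusted p = 0.00208). Cdca8, borealin, rose by 1.75. Incenp averaged 46.7 ± 7.27 CPM in graft veins, against 11.3 ± 1.55 CPM in control veins (SD, n = 4 each) and rose by 2.05 ± 0.17 (SE; edgeR adjusted p = 3.41e-05).

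**Figure D3:**
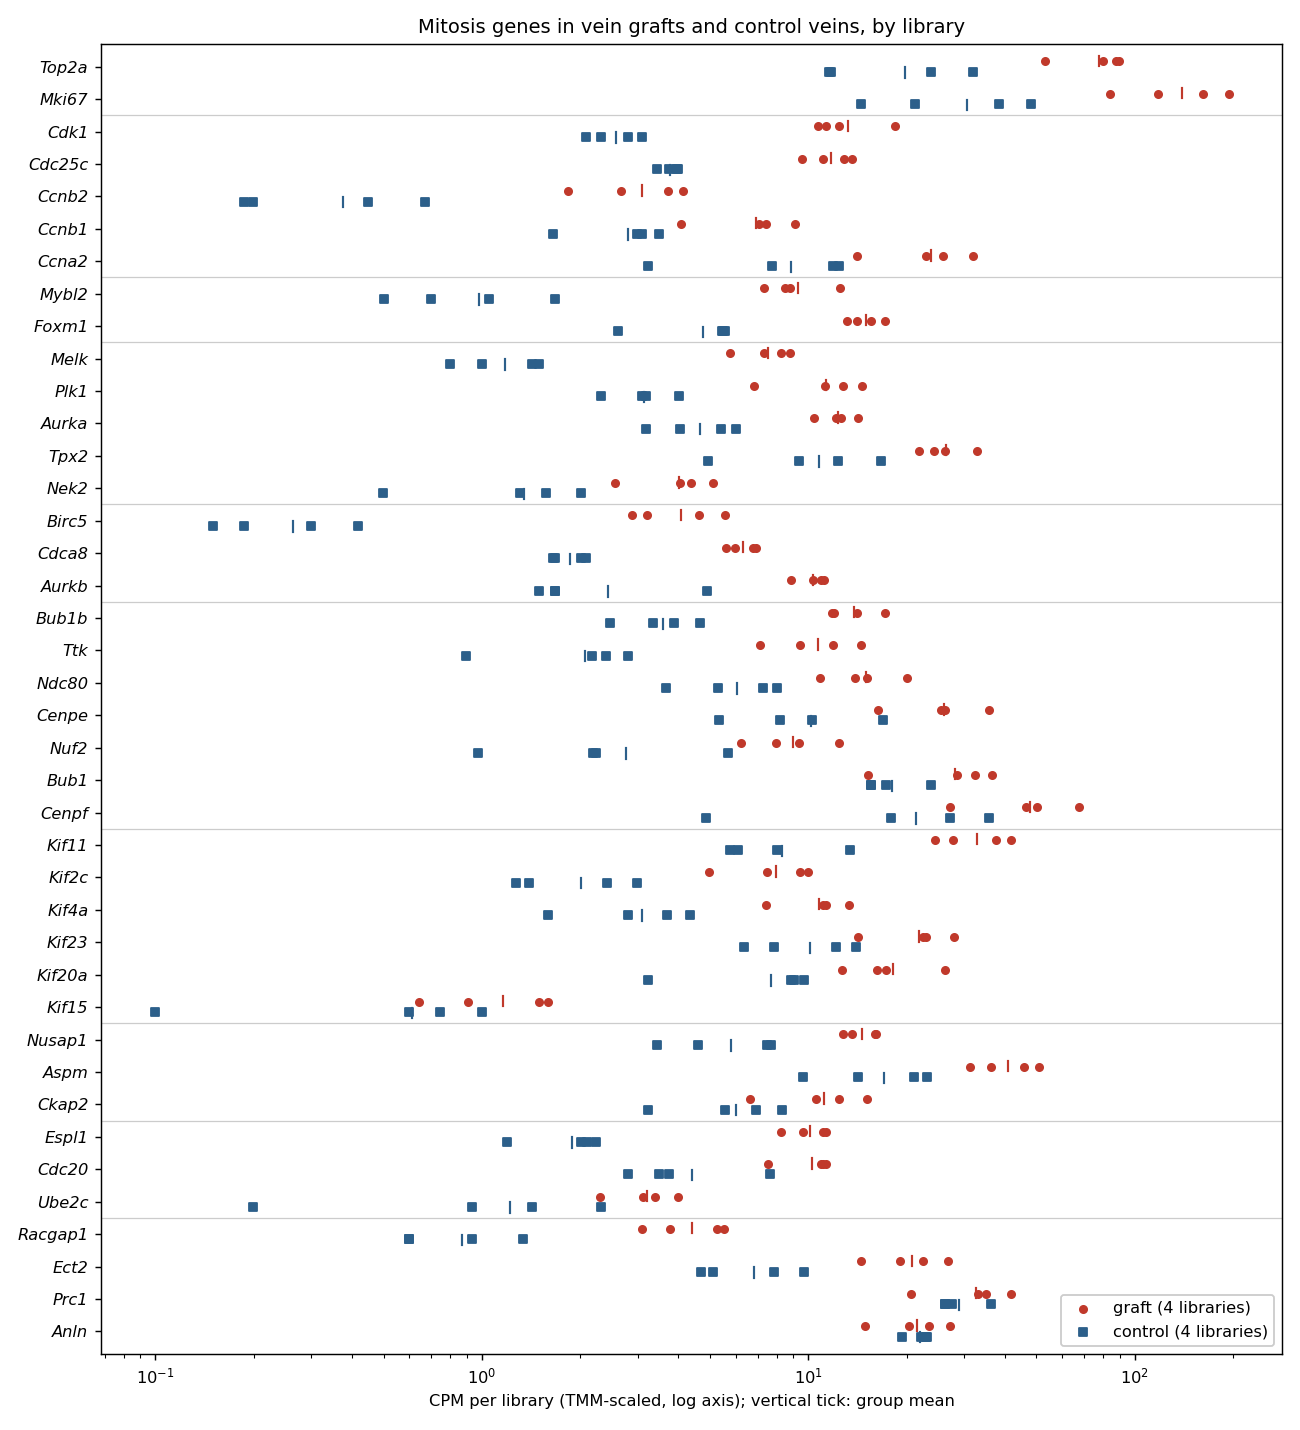
CPM of each mitosis gene on a log axis, with 1 symbol per library: red circles are the 4 grafts and blue squares the 4 controls, and short vertical ticks are group means. Rows run by role, as in the plot of fold changes. Circles and squares are apart in 31 rows. They mix in those of Bub1, Cenpf, Kif15, Ckap2, Prc1 and Anln and touch in Cenpe, Cdc20 and Ube2c.

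Of 7 kinetochore and spindle checkpoint genes, 5 rose and 2 did not pass. Bub1b, the checkpoint protein BubR1, stood at 12.0, 17.2, 11.8 and 14.1 CPM in grafts 1 to 4, against 2.47, 3.88, 3.35 and 4.67 CPM in controls 1 to 4. It was separated and rose by 1.96 ± 0.24 (SE; edgeR adjusted p = 0.000241). Ttk, the kinase Mps1 that starts the checkpoint signal, stood at 9.41, 14.5, 7.12 and 11.9 CPM in grafts 1 to 4, against 2.40, 0.896, 2.18 and 2.80 CPM in controls 1 to 4, also separated, with a rise of 2.39 ± 0.36 (SE; edgeR adjusted p = 0.000704). Bub1, the checkpoint kinase that recruits BubR1, differed less. It stood at 28.6, 36.5, 15.3 and 32.4 CPM in grafts 1 to 4, against 15.6, 15.5, 23.8 and 17.4 CPM in controls 1 to 4, graft 3 lay below every control, and the log2 difference of 0.64 ± 0.27 (SE; edgeR adjusted p = 0.0784) did not pass.

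Cenpf, a large protein of the outer kinetochore, stood at 46.3, 67.5, 27.1 and 50.3 CPM in grafts 1 to 4, against 4.87, 17.9, 35.7 and 27.3 CPM in controls 1 to 4. Controls 3 and 4 lay above graft 3, and the log2 difference of 1.16 ± 0.50 (SE; edgeR adjusted p = 0.0878) did not pass. Without control 3 Cenpf passed (edgeR adjusted p = 0.049), as it did with all libraries by DESeq2 (adjusted p = 0.0421), by limma voom (adjusted p = 0.0453) and with library totals alone, and Bub1 passed without graft 3 (edgeR adjusted p = 0.00861). With graft 2 removed both lay farther from the threshold (edgeR adjusted p = 0.192 for Cenpf and 0.192 for Bub1). The microtubule-binding Ndc80 complex rose in all 4 subunits: by 1.32 for Ndc80 and 1.68 for Nuf2, and by 1.91 for Spc24 and 1.45 for Spc25, which were not among the 40. Cenpe, the kinetochore motor, rose by 1.35, although graft 3 at 16.4 CPM lay just under control 3 at 17.0 CPM.

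Of 6 kinesin motors, 5 rose and were separated. Kif11, the motor Eg5 that pushes spindle poles apart, stood at 27.8, 41.7, 24.5 and 37.5 CPM in grafts 1 to 4, against 5.77, 6.07, 13.5 and 8.03 CPM in controls 1 to 4. It rose by 1.98 ± 0.30 (SE; edgeR adjusted p = 0.000758). Kif2c, which shortens microtubules at the centromere, stood at 7.46, 9.46, 4.96 and 10.0 CPM in grafts 1 to 4, against 1.27, 1.39, 2.43 and 2.99 CPM in controls 1 to 4, and rose by 2.02 ± 0.35 (SE; edgeR adjusted p = 0.00158). Kif15, which helps Kif11 keep the spindle bipolar, was the exception. It stood at 0.910, 1.5, 1.60 and 0.642 CPM in grafts 1 to 4, against 0.599, 0.0996, 1.00 and 0.747 CPM in controls 1 to 4, near the level of a few counts, with 65 counts in the grafts and 25 in the controls, and its log2 difference of 0.91 ± 0.57 (SE; edgeR adjusted p = 0.228) did not pass. Kif4a, of chromosome arms and the midzone, rose by 1.78, and Kif20a and Kif23, motors of the central spindle, rose by 1.25 and 1.13. Without graft 2 Kif20a did not pass (edgeR adjusted p = 0.0516).

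Of 3 spindle-associated proteins, 2 rose. Nusap1, which bundles microtubules near chromosomes, stood at 13.6, 16, 12.8 and 16.1 CPM in grafts 1 to 4, against 3.45, 4.58, 7.70 and 7.47 CPM in controls 1 to 4. It was separated and rose by 1.35 ± 0.27 (SE; edgeR adjusted p = 0.00332), while Aspm, of the spindle poles, rose by 1.28. Ckap2 stood at 10.6, 15.1, 6.64 and 12.4 CPM in grafts 1 to 4, against 3.22, 5.58, 8.28 and 6.91 CPM in controls 1 to 4. Graft 3 lay among the controls, and the log2 difference of 0.91 ± 0.33 (SE; edgeR adjusted p = 0.0525) lay just outside the threshold. Ckap2 passed without graft 3 (edgeR adjusted p = 0.0249) or control 3 (edgeR adjusted p = 0.0387), and lay farther from the threshold without graft 2 (edgeR adjusted p = 0.138). With all libraries it passed by DESeq2 (adjusted p = 0.0322), by limma voom (adjusted p = 0.0481) and with library totals or upper-quartile factors.

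Of 3 genes of anaphase, 2 rose. Espl1, separase, the protease that cuts cohesin, stood at 8.25, 11.1, 11.4 and 9.63 CPM in grafts 1 to 4, against 2.10, 1.20, 2.01 and 2.24 CPM in controls 1 to 4. The lowest graft value was 3.68 times the highest control value, and it rose by 2.42 ± 0.25 (SE; edgeR adjusted p = 9.77e-05), with the smallest p of the 40. Cdc20, the activator of the APC/C at metaphase, rose by 1.19, with graft 3 at 7.52 CPM just under control 3 at 7.61 CPM. Ube2c, the ubiquitin-conjugating enzyme that works with the APC/C, stood at 2.31, 3.98, 3.12 and 3.40 CPM in grafts 1 to 4, against 2.32, 0.199, 1.42 and 0.933 CPM in controls 1 to 4. Control 1 matched graft 1 and control 2 was far lower, and the log2 difference of 1.34 ± 0.53 (SE; edgeR adjusted p = 0.0697) did not pass. Without control 1 Ube2c passed (edgeR adjusted p = 0.0205), and with all libraries it passed by DESeq2 (adjusted p = 0.0405), by limma voom (adjusted p = 0.0439) and with library totals alone. It lay farther from the threshold without graft 2 (edgeR adjusted p = 0.146) and with controls 3 and 4 left out (edgeR adjusted p = 0.219).

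Of 4 cytokinesis genes, 2 rose and 2 did not pass. Racgap1, which with Kif23 forms the centralspindlin complex, stood at 3.09, 5.26, 3.76 and 5.52 CPM in grafts 1 to 4, against 0.599, 0.598, 1.34 and 0.933 CPM in controls 1 to 4, and rose by 2.34 ± 0.37 (SE; edgeR adjusted p = 0.000967). Ect2, the exchange factor that switches on RhoA at the cleavage site, rose by 1.61. Prc1, which cross-links microtubules of the central spindle, stood at 33.0, 41.9, 20.6 and 35.1 CPM in grafts 1 to 4, against 26.1, 27.5, 26.3 and 36.2 CPM in controls 1 to 4, and its log2 difference of 0.17 ± 0.22 (SE; edgeR adjusted p = 0.542) did not pass. Anln, anillin, which links actin, myosin and septins in the contractile ring, stood at 23.5, 27.3, 14.9 and 20.3 CPM in grafts 1 to 4, against 23.0, 22.2, 19.3 and 23.1 CPM in controls 1 to 4. The 4 controls lay within the range of the grafts, and the log2 difference was -0.03 ± 0.19 (SE; edgeR adjusted p = 0.92). The sign for Anln turned with the scaling: it was 0.19 with library totals alone and 0.03 with upper-quartile factors, neither past the threshold. A row named Anlnl1 held 414 counts in the grafts and 289 in the controls, and how reads shared with Anln were counted is not stated.

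**Figure D4:**
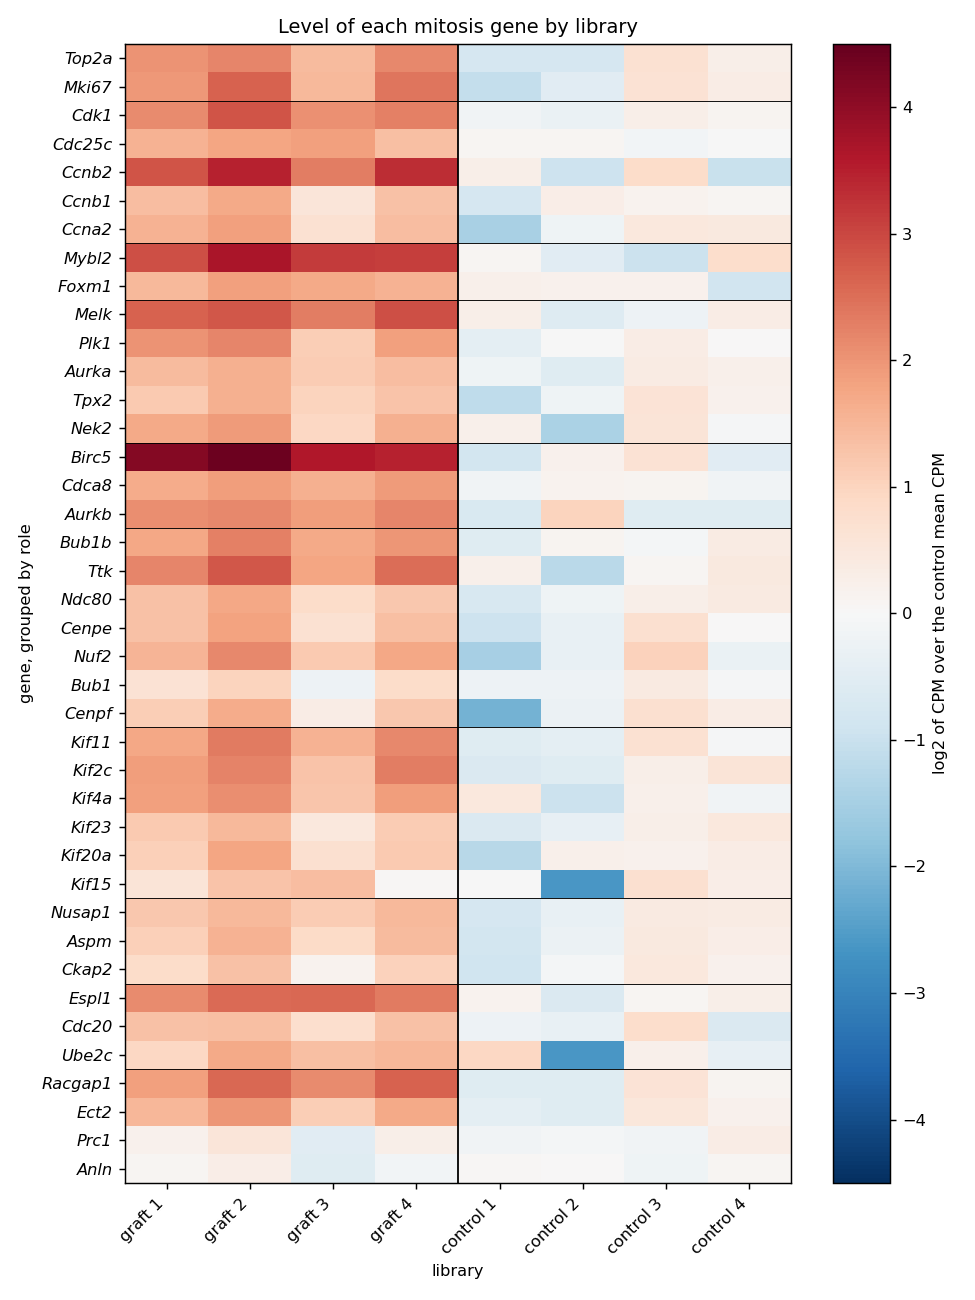
Level of each mitosis gene in each library as the log2 of its CPM over the mean of the 4 controls, red above and blue below, with grafts on the left and controls on the right. Graft 2 holds the highest graft value in 31 of 40 rows and graft 3 the lowest in 32, and among controls the highest value is that of control 3 in 22 rows. The rows of Prc1 and Anln are pale in all libraries.

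The mitosis genes kept much the same order of libraries in the grafts, and less so in the controls. Summed over the 40 genes they stood at 751, 1022, 558 and 850.0 CPM in grafts 1 to 4, against 198, 245, 386 and 336 CPM in controls 1 to 4, or 1.92 to 3.51 times the control mean in the grafts. Graft 2 held the highest graft value for 31 of 40 genes, while 20.1% of all genes tested were highest there. Graft 3 held the lowest for 32 of 40, while 32.2% of all genes tested were lowest there. Cdc25c, Espl1 and Kif15 departed from this order, with their highest graft value in graft 3 and the next in graft 2. Among controls, control 3 was highest for 22 genes (22.3% of all genes tested) and control 1 lowest for 21 (31.7%). Control 4 was highest for 11 genes (22.9%) and control 2 lowest for 13 (17.8%).

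Other measures of the libraries also varied within the groups, some along this order and some against it. Among the grafts the Schwann cell markers ran against it, highest in graft 3 and lowest in graft 2. The adipocyte markers were highest in graft 4. The summed levels of 6 adipocyte markers were 84.6, 96.5, 88.7 and 138 CPM in grafts 1 to 4, against 386, 666, 1990.4 and 3087 CPM in controls 1 to 4, and those of 5 Schwann cell markers were 48.0, 21.3, 264 and 25.9 CPM in grafts 1 to 4, against 101, 132, 1952 and 1775 CPM in controls 1 to 4, so that controls 3 and 4 were highest on both, as they were on the mitosis genes. Graft 3, lowest on the mitosis genes, was also lowest of the grafts on 6 smooth muscle markers, at 1612 CPM against 2721 to 3207 CPM in the other grafts, and highest on 6 T and NK cell markers, at 111 CPM against 34.3 to 50.7 CPM. With controls 3 and 4 left out, 35 of the 40 rose, the 33 of the full set among them. The 6 skeletal muscle markers differed widely between libraries of a group, with sums of 2246, 56.7, 1024 and 2052 CPM in grafts 1 to 4, against 33.3, 29.3, 2835 and 682 CPM in controls 1 to 4, and graft 2, highest on the mitosis genes, was the lowest graft on these. The part of cell makeup in the order of libraries was not tested.

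Markers of many cell types moved with the group as well. The shares to read beside the counts that follow are 21.0% risen and 21.3% fallen over all genes tested. All 6 macrophage markers rose, with sums of 739 to 1149.8 CPM in graft veins, against 146 to 203 CPM in control veins. All 5 tested of 6 T and NK cell markers rose, with sums of 34.3 to 111 CPM in graft veins, against 0.560 to 7.64 CPM in control veins, and Cd3g, Cd5, Nkg7 and Il2rb were each at 0 in at least 1 control. Both tested of 5 mesothelial markers rose, with sums of 48.8 to 77.1 CPM in graft veins, against 0.15 to 0.92 CPM in control veins, and Msln and Wt1 were at 0 in every control. Msln alone stood at 43.7 to 71.5 CPM in the grafts. Lrrn4, Upk3b and Krt19 had too few counts to be tested. They held 47, 1 and 37 counts in the grafts, against 0, 0 and 19 in the controls, and Krt19 was highest in control 3. All 6 smooth muscle and all 6 adipocyte markers fell, and the adipocyte sums were 84.6 to 138 CPM in graft veins, against 386 to 3087 CPM in control veins. Of 6 endothelial markers 4 fell, with sums of 1215 to 1531 CPM in graft veins, against 2925 to 4532 CPM in control veins, and of 6 fibroblast markers 1 rose and 3 fell, with sums of 33112 to 73108 CPM in graft veins, against 82013 to 137071 CPM in control veins. In the remaining lists 3 of 4 tested neutrophil markers and 1 of 3 tested B and plasma cell markers rose. The other tested neutrophil marker fell, as did 4 of 5 tested mast cell markers, 3 of 5 Schwann cell markers and 4 of 5 erythroid markers. By edgeR 0 of 6 skeletal muscle markers passed (1 at an unadjusted p under 0.05) and 0 of 2 tested neuron markers (0 at an unadjusted p under 0.05). The part of these cell types in the rise of the mitosis genes was not tested.

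Further genes of mitosis were counted from lists of the parts of the machinery, chosen with earlier results of these data known. Of 94 genes tested in all, 52 rose, 11 fell and 31 did not pass. Over all genes tested 21.0% rose and 21.3% fell, shares to read beside these counts and those that follow. Of 19 more centromere and kinetochore genes 17 rose (median 1.45), and of 20 more spindle and cytokinesis genes 18 rose (median 1.70) and 2 did not pass. Iqgap3, a scaffold protein of dividing cells, averaged 31.0 ± 2.83 CPM in graft veins, against 9.95 ± 0.932 CPM in control veins (SD, n = 4 each) and rose by 1.64 ± 0.14 (SE; edgeR adjusted p = 3.95e-05). Zwint, of the kinetochore, went against its list and fell by 0.51 ± 0.10 (SE; edgeR adjusted p = 0.00326), a call that was lost with library totals alone. With controls 3 and 4 left out, 11 of the centromere and kinetochore genes rose.

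Of 8 condensin subunits, which compact chromosomes, 5 rose and 3 did not pass. Ncapd2, of condensin I, averaged 36.0 ± 1.71 CPM in graft veins, against 14.3 ± 1.99 CPM in control veins (SD, n = 4 each) and rose by 1.33 ± 0.14 (SE; edgeR adjusted p = 9.77e-05). The core subunits shared by both condensins, Smc2 and Smc4, named here with their values in view, stood at -0.31 and -0.23 and did not pass. Of 17 more regulators of Cdk1 and the APC/C, 9 rose, 1 fell and 7 did not pass. The one that fell was Wee1, the kinase that holds Cdk1 inactive, which averaged 21.6 ± 3.26 CPM in graft veins, against 70.7 ± 16.9 CPM in control veins (SD, n = 4 each) and fell by 1.71 ± 0.20 (SE; edgeR adjusted p = 0.00016). Here 2 genes fell with control 1, control 2 or control 4 removed, with controls 3 and 4 left out, and by DESeq2.

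Complexes that also work outside mitosis were counted as well, against the 21.0% of all genes tested that rose and the 21.3% that fell. Of 9 cohesin genes, whose ring holds sister chromosomes together and also folds chromosomes in resting cells, 0 rose, 5 fell and 4 did not pass. Their median log2 fold change was -0.46. No cohesin gene was higher at an unadjusted p under 0.05 by edgeR, and 0 rose by DESeq2 or limma voom. Pds5b averaged 121 ± 2.93 CPM in graft veins, against 184 ± 13.9 CPM in control veins (SD, n = 4 each) and fell by 0.60 ± 0.10 (SE; edgeR adjusted p = 0.00116). The number that fell was 3 with graft 1, graft 3, control 2, control 3 or control 4 removed, 9 with control 1 removed, 3 with the replicate block, 2 with library totals alone and 1 with controls 3 and 4 left out.

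Of 11 core subunits of the APC/C, 1 rose and 2 fell, and 8 did not pass; the median log2 fold change was 0.00, against 0.01 over all genes tested. The numbers that rose and fell are at or below the shares over all genes. Cdc27 fell by 0.58 ± 0.16 (SE; edgeR adjusted p = 0.0169), and Anapc2 rose by 0.42 ± 0.14 (SE; edgeR adjusted p = 0.0318). These few calls changed with single libraries. The number that rose was 0 with graft 1, 2 or 3 or control 2, 3 or 4 removed, and 2 with control 1 removed. The number that fell was 1 with any single graft or control 2 or 3 removed, and 0 with control 4 removed or with library totals alone. Of 10 tested genes of the MuvB and DREAM complexes, which repress or activate the CHR promoters, 2 rose and 2 fell, which is close to the shares over all genes tested (21.0% and 21.3%). Lin52 fell by 0.97 ± 0.13 (SE; edgeR adjusted p = 0.000402), Tfdp2 fell by 1.53 ± 0.29 (SE; edgeR adjusted p = 0.00242), Rbl1 rose by 1.05 ± 0.20 (SE; edgeR adjusted p = 0.00246) and E2f4 rose by 0.59 ± 0.20 (SE; edgeR adjusted p = 0.0379). The number that rose was 1 with graft 2, graft 3, control 3 or control 4 removed.

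**Figure D5:**
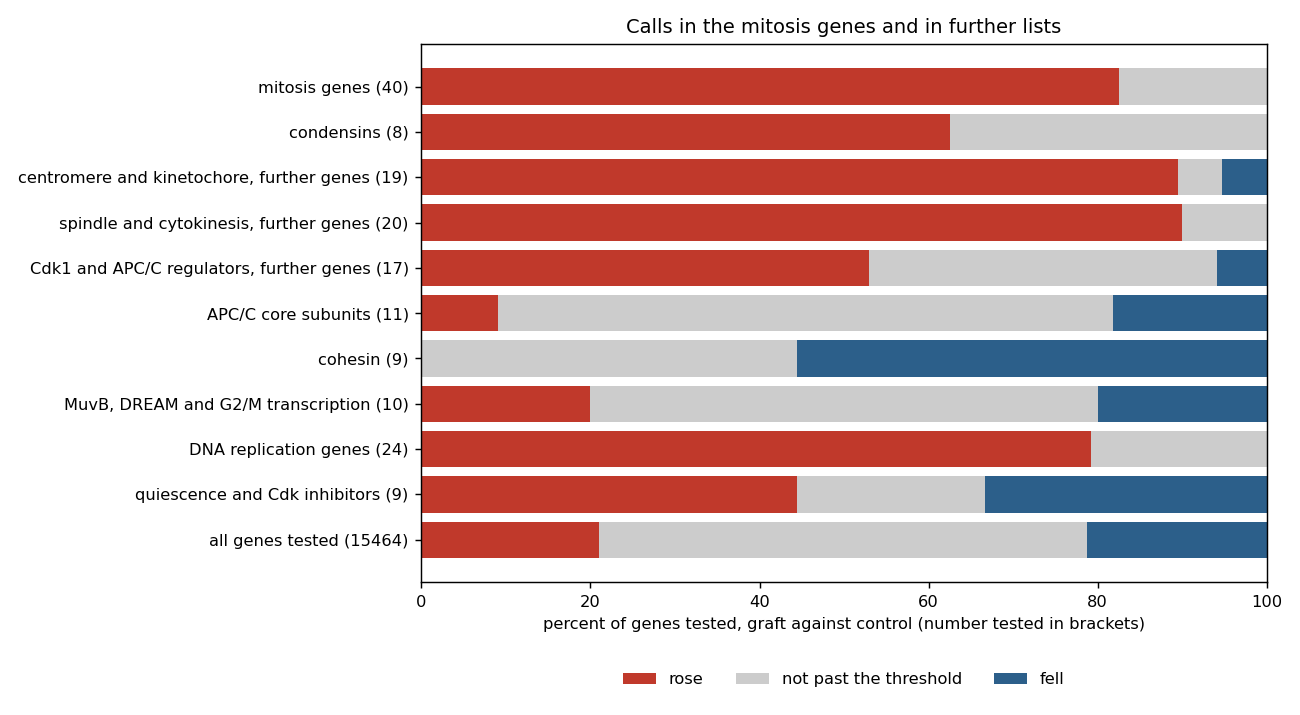
Share of tested genes that rose (red), did not pass (grey) or fell (blue) in grafts against controls, in percent, for the mitosis genes, the further lists of mitosis, replication and cell cycle inhibitor genes, and all genes, with the number tested in brackets. Marker lists are not drawn. The 40 mitosis genes are the top bar, with 33 risen, and all 15464 genes tested are the bottom bar. Red fills most of the bars of kinetochore, spindle and DNA replication genes, and in the bar of cohesin 5 of 9 fell.

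DNA replication genes, which act a step earlier in the cycle, rose beside the mitosis genes: 19 of 24 rose and 5 did not pass (median log2 fold change 1.26). Over all genes tested 21.0% rose. Mcm2, of the replicative helicase, averaged 37.0 ± 3.61 CPM in graft veins, against 13.4 ± 0.767 CPM in control veins (SD, n = 4 each). The summed level of these 24 genes stood at 391, 459, 370.3 and 423 CPM in grafts 1 to 4, against 219, 186, 213 and 239.7 CPM in controls 1 to 4. The controls differed less on this sum than on that of the mitosis genes. The sum of the 40 mitosis genes over that of the replication genes was 1.92, 2.23, 1.51 and 2.01 in grafts 1 to 4, against 0.904, 1.32, 1.81 and 1.40 in controls 1 to 4. On this ratio the groups overlapped, with control 3 above graft 3.

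Counting limits bear on some of these genes. In the GRCr8 annotation 7 of the 40 overlap another gene that has a row of its own: Aurka, Plk1, Kif11, Kif15, Kif4a, Kif20a and Nusap1. Whether counting used strand is not given in the sources used here, so reads of these genes and of the genes that overlap them may not be told apart. Kif20a overlaps Cdc23, an APC/C subunit that did not pass. A copy of Nek2 with a row of its own, Nek2l1, held 14 counts in the grafts and 1 in the controls.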

How the data were processed

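RNA of 4 graft and 4 control veins was sequenced, per the labels. The submitters' processing notes name HISAT2 2.0.4 and the build Rnor_6.0. The counter, annotation and strand setting were not named there or in the labels. The authors deposited raw counts, whole numbers for 37209 gene rows. Libraries of a group all differed beyond sampling noise.

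The tests used edgeR 4.0.16 in R 4.3.3: filterByExpr with a minimum count of 10 (15464 genes), TMM factors, glmQLFit and glmQLFTest, Benjamini-Hochberg adjustment over all genes tested, called under 0.05. Standard errors are log2 fold changes divided by the root of the F statistic, taken without sign. CPM uses TMM-scaled library sizes. Promoter windows are RefSeq's, with the build GRCr8. The procedure was tested on simulated data. Alternatives used DESeq2 1.42.0, limma 3.58.1, other scalings and filters, thinned counts, a replicate block and left-out libraries.

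The mitosis genes, the further lists and the marker lists were chosen with earlier results of these data known. In each role group the genes with the smallest and largest p are given by library, in groups of 5 or more also the second smallest p, with every gene not past the threshold. From each further list the gene with the smallest p is named, and those that moved against its majority. In 7 cases a list gene was found under an older symbol.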

Additional observations from a re-analysis of the deposited data

Results flagged for a closer look

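A library stood far from the other 3 of its group for 5 values, where the gap to its neighbour took up most of the group's range. This was looked for in 82 sets of 4 values, and chance flags about 1 in 20. Graft 3 was the lowest graft for Cdc20, at 7.52 CPM, with the next graft at 11 CPM. Control 4, the library with the fewest counts, was the lowest control for Foxm1, at 2.61 CPM against 5.44 CPM in the next, and the highest for Prc1, at 36.2 CPM against 27.5 CPM. Control 2 was the highest control for Aurkb, at 4.88 CPM against 1.68 CPM. Control 1 was the lowest control for Kif20a, at 3.22 CPM against 8.87 CPM. Without the library concerned Cdc20, Foxm1, Aurkb and Kif20a still rose, and Prc1 still did not pass.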

How the results depend on the processing

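The count of mitosis genes that rose was 33 and ran from 32 to 37 over 18 alternatives, with 0 that fell in each. The largest, 37, came with library totals alone, which added Bub1, Cenpf, Ckap2 and Ube2c. DESeq2 and limma voom gave 36 each, both adding Cenpf, Ckap2 and Ube2c. The 33 were kept in all alternatives but 2: thinning lost Nek2, and leaving out graft 2 lost Kif20a. Leaving out 1 library each gave 32 to 35 rises of the mitosis genes, 2845 to 4054 rises and 2742 to 3786 falls among all genes tested, and 44 to 56 rises and 8 to 16 falls among the further mitosis genes. Library totals alone gave 4558 rises and 2164 falls among all genes (67.8% of calls rose, against 49.7% with TMM), and 5 falls among the further mitosis genes. With controls 3 and 4 left out, 6 of those fell. The log2 difference of Anln was 0.19 with library totals alone and 0.028 with upper-quartile factors, and ran from -0.16 (without graft 2) to 0.13 (without graft 3) with 1 library left out, above 0 also without graft 4 or control 4; it never passed, and the cause was not tested. Same-numbered grafts and controls deviated together with correlations of -0.07 to 0.18, and 1 of 4 grafts (graft 2) correlated best with its own number, so the title numbers were not taken as pairs; the true pairing of veins from 1 animal is not known. With the replicate block 33 mitosis genes rose, 3042 of all genes rose and 2860 fell, and 49 further mitosis genes rose and 8 fell. Depth limits genes with few control counts, such as Birc5 (11 in all) and Kif15 (25 in all), and the filter at 1 CPM in 4 libraries left out Kif15.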

Other observations

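Inhibitors of the cell cycle moved in both directions. Of 9 tested genes of quiescence and Cdk inhibition, 4 rose, 3 fell and 2 did not pass. Over all genes tested 21.0% rose and 21.3% fell. Cdkn1a, the inhibitor p21 induced by p53, stood at 61.8, 51.4, 52.6 and 59.4 CPM in grafts 1 to 4, against 5.02, 5.58, 6.36 and 6.35 CPM in controls 1 to 4. Every graft was above every control and the rise was 3.28 ± 0.14 (SE; edgeR adjusted p = 8.96e-06). The other inhibitors that rose were Cdkn2b, by 4.87 ± 0.40 (SE; edgeR adjusted p = 3.73e-05), and Cdkn1c, by 1.64 ± 0.32 (SE; edgeR adjusted p = 0.00286). Cdkn2a, with 0 counts in every control and 126 in the grafts, rose as well, by 7.76 ± 1.03 (SE; edgeR adjusted p = 0.00135). Cdkn1b, the inhibitor p27 of resting cells, averaged 70.3 ± 12.2 CPM in graft veins, against 155 ± 23.7 CPM in control veins (SD, n = 4 each) and fell by 1.14 ± 0.17 (SE; edgeR adjusted p = 0.000614). Tob1 and Btg2, antiproliferative proteins of one family, fell by 1.78 ± 0.29 (SE; edgeR adjusted p = 0.00103) and 0.94 ± 0.21 (SE; edgeR adjusted p = 0.00565).

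Of 10 genes of meiosis and germ-line division, 8 had too few counts to be tested, among them Ccnb3 and Rec8. Sycp2, of the synaptonemal complex, stood at 3.16, 4.51, 2.16 and 1.61 CPM in grafts 1 to 4, against 13.8, 11.7, 8.78 and 10.1 CPM in controls 1 to 4, with no overlap between the groups, and fell by 1.96 ± 0.33 (SE; edgeR adjusted p = 0.00124). Aurkc, the Aurora kinase of germ cells, stood at 0.19 ± 0.33 (SE; edgeR adjusted p = 0.672) on the log2 scale and did not pass.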
